A study of Homo sapiens with 12 samples.

Results

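Genes of the cytotoxic granule were followed in TMD8, an established human lymphoma line of the activated B cell type. The list held 8 genes: the granzymes GZMB, GZMA, GZMK and GZMM, the pore-forming PRF1, the granzyme-activating peptidase CTSC, the granule proteoglycan SRGN and the granzyme B inhibitor SERPINB9. Rows were found by gene name for 6 of the 8, and GZMA and GZMK were not analysed here. Of those 6, 5 passed the filter on low counts, among 16437 of 26318 genes in all, and GZMM did not. The list was chosen from the contrast of IRF4 shRNA with control, so the members' values in that contrast are given as a description, with no test.

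The libraries were made from polyadenylated RNA of cells collected at 24 h. There were 6 libraries from cells with a scramble shRNA (control) and 6 from cells with an shRNA against IRF4, a transcription factor of activated B cells and plasma cells. All came from 1 cell line, and no label tells if the libraries within a group were grown separately, and each p-value therefore reflects library-to-library spread that may be technical. The hairpin sequences and their number are not given in the sources used here. Library names carry a number, 1 or 2, whose meaning is not stated. The libraries with each number, 3 control and 3 IRF4 shRNA, are called series 1 (replicates 1 to 3) and series 2 (replicates 4 to 6).

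Granzymes are serine proteases that cytotoxic T cells and NK cells store in secretory granules. They are made as inactive precursors, and cathepsin C removes the dipeptide that holds them inactive. Serglycin, the product of SRGN, binds granzymes and perforin through its sulphated sugar chains inside the granule. Perforin forms the pore that lets granzymes into a target cell, where granzyme B cuts caspases and BID. SERPINB9 blocks granzyme B in the cytosol and protects both the cells that make it and their targets. Outside these killer cells, granzyme B without perforin is known from plasmacytoid dendritic cells and from activated B cells.

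Total counts ran from 31.3 to 38.2 M per library (M, 1e6 counts). On these unscaled totals 3 counts, taken as the detection floor, equalled 0.0786 to 0.0959 counts per 1e6 counts (CPM). CPM elsewhere use TMM-scaled library sizes, on which the floor differs slightly, as with 0.0763 CPM for 3 counts in IRF4 shRNA replicate 6. Intervals and floors cover counting error only. IRF4 itself lay between 1427 and 1571 CPM in controls, between 507.4 and 526.1 CPM in IRF4 shRNA libraries of series 1 and between 689 and 716 CPM in those of series 2. It was thus at 34.7% of the control mean in series 1 and 47.9% in series 2. Libraries also differed in how counts followed the GC content of transcripts. Across 15832 genes, Spearman's rho between GC and the deviation of a library from the mean of its group was 0.423 and 0.593 in control replicates 5 and 6, and -0.501 to -0.0504 in the other 4 controls. It was 0.233 to 0.312 in IRF4 shRNA libraries of series 1 and -0.327 to -0.194 in those of series 2. B cell markers were well expressed, summing to 4931 to 5554 CPM in controls and to 6870 to 7259 CPM in IRF4 shRNA libraries, and 6 of 9 rose, 1 fell and 2 did not pass the test, where 24.2% of all genes tested rose and 23.9% fell (48.2% called). T cell markers with a row (4 of 9) summed to at most 0.797 CPM in any library, nearly all of it CD8A, with CD28 at 0 and CD3E at 0 in every control. NK cell markers (5 of 9 with a row) summed to 0 to 0.0636 CPM in controls and to 0.141 to 0.705 CPM in IRF4 shRNA libraries, with KLRD1 and NCR1 at 0 in every library. Myeloid and mast cell markers (5 of 9 with a row) summed to 0.153 to 0.824 CPM in controls and to 0.299 to 0.871 CPM in IRF4 shRNA libraries, with MPO and TPSAB1 at 0. Plasmacytoid dendritic cell markers (7 of 8 with a row) summed to 789 to 1021 CPM in controls and to 612 to 711 CPM in IRF4 shRNA libraries, most of it TCF4, and SCT was at 0. Of the 6 tested 1 rose (LILRA4) and 4 fell (CLEC4C, IL3RA, PACSIN1 and TCF4), beside the same 24.2% and 23.9% of all genes, and the part of any of these marker lists in the members' values was not tested.

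The DNA just upstream of GZMB and PRF1 is shown because these genes stood at opposite ends of the list with IRF4 shRNA. RefSeq promoters (GRCh38.p14) were matched for 5 of the 8 members, and those of the 4 with a row in the count table (GZMB, PRF1, CTSC and SERPINB9) were used, together with that of GZMH. The 250 bases before the RefSeq start were searched on both strands for an AP-1 site (TGANTCA), a RUNX core (TGTGGT), an ETS core (GGAAGT), the ETS-IRF composite element to which IRF4 binds with PU.1 or SPIB (GGAANNGAAA), the interferon-stimulated response element (GAAANNGAAA), the cAMP response element (TGACGTCA), the NFAT core (GGAAA) and the GAS element bound by STAT factors (TTCNNNGAA). The capitals mark the matches. Bases inside the gene as the deposited table has it are left out, which leaves 173 bases for GZMB (chr14:24634268-24634440, minus strand) and 232 for PRF1 (chr10:70602760-70602991, minus strand).
GZMB: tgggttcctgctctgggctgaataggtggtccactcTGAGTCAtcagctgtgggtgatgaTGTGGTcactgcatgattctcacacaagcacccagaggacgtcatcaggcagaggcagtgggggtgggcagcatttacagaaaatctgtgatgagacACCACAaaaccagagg
PRF1: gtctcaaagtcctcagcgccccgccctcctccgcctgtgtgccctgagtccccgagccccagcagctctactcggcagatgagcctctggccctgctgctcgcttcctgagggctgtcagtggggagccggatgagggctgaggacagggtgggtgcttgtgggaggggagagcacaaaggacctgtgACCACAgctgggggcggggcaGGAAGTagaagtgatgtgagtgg

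In GZMB the AP-1 match began 214 bases before the RefSeq start, and RUNX matches began 190 and 93 bases before it. In PRF1 a RUNX match began 62 bases and an ETS match 41 bases before the start. NFAT matches began 45 and 12 bases before the start of GZMB, in the bases left out of the printed sequence, and 49 bases before that of CTSC. SERPINB9 and GZMH had no match in this window. The composite, interferon, cAMP and GAS elements occurred in none of these promoters. Over 35116 RefSeq promoters, 6.57% held the AP-1 site, 10.98% the RUNX core, 19.5% the ETS core, 2.41% the composite element, 3.02% the interferon element, 1.65% the cAMP element, 55.6% the NFAT core and 6.57% the GAS element. These matches are letters in a window and do not show binding.

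GZMB, which encodes granzyme B (chromosome 14, 24630954 to 24634267, minus strand, hg38), was abundant in control cells and low in every IRF4 shRNA library. Control replicates 1 to 6 had 176, 201, 195, 205, 200.1 and 226 CPM. IRF4 shRNA replicates 1 to 6 had 8.05, 8.92, 8.71, 27.3, 29.8 and 29.03 CPM. The groups did not overlap, and the IRF4 shRNA libraries of the 2 series did not overlap either, with series 1 lower. The mean was 201 ± 15.99 CPM in controls against 18.6 ± 11.1 CPM in IRF4 shRNA libraries (SD, n = 6 each), a 10.8-fold difference and a log2 fold change of -3.42 (SE 0.32). Per series, GZMB stood at 4.49% of control in series 1 (log2 fold change -4.48, SE 0.07) and at 13.6% in series 2 (-2.87, SE 0.07). The wide SD of the IRF4 shRNA group thus lay between the series, since within them it was 0.455 and 1.29 CPM (n = 3 each). Over all genes tested, 13 had a log2 fold change as low as that of GZMB or lower, itself included. In bulk RNA, fewer cells with the transcript and less of it per cell cannot be told apart.

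GZMH, a near relative of GZMB that lies 21.3 kb from it on the same strand, is no member but resembles it in sequence. It had 29.2 to 64.6 estimated counts per control library and 2.0 to 22.3 per IRF4 shRNA library, many of them fractional, so reads may have been divided between the 2 genes. Its count was 0.453% to 0.830% of that of GZMB in controls and 0.645% to 2.03% with IRF4 shRNA. Its level was 1.28 ± 0.361 CPM in controls against 0.252 ± 0.211 CPM in IRF4 shRNA libraries (SD, n = 6 each). It fell by 2.31 on the log2 scale (SE 0.39, edgeR adjusted p = 0.000176), and stood at 7.07% of control in series 1 and 32.04% in series 2.

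GZMM, the gene of granzyme M (chromosome 19, 544034 to 549924, plus strand), was at the edge of detection. Control replicates 1 to 6 had 0, 1, 0, 1, 2 and 1 counts, all under the floor of 3. IRF4 shRNA replicates 1 to 6 had 6, 3, 1, 10, 5 and 3 counts. The groups overlapped at 1 count. Summed over libraries, 5 control counts against 28 give a ratio of 5.19 with a 95% exact counting interval from 1.98 to 17.2, so its size is poorly set.

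PRF1, which encodes perforin (chromosome 10, 70597348 to 70602759, minus strand), was next to absent from controls and present at a low level in every IRF4 shRNA library. Control replicates 1 to 6 had 0, 2, 0, 1, 0 and 0 counts, and IRF4 shRNA replicates 1 to 6 had 68, 70, 66, 50, 59 and 57. No control library reached the floor of 3 counts, and every IRF4 shRNA library was far above it. In sum 3 control counts stood against 370, a ratio of 114 with a 95% exact counting interval from 38.8 to 557. The level with IRF4 shRNA was 1.74 ± 0.297 CPM (SD, n = 6). It was 1.99 ± 0.147 CPM in series 1 and 1.49 ± 0.103 CPM in series 2 (n = 3 each), with no overlap, so the series with less IRF4 had more PRF1. The IRF4 shRNA libraries of the 2 series also differed in GC trend, as given above, and the part of either in this difference was not tested. Some markers of other cell types stood higher in the same libraries. The NK cell marker NCR3 had a mean of 0.0155 CPM in controls against 0.278 CPM in IRF4 shRNA libraries (61 counts in all 12 libraries), and KLRB1 was at 0 in every control and at 0.0272 to 0.153 CPM in the IRF4 shRNA libraries (15 counts). The T cell markers CD7 and CD3E were at 0 in controls, with 3 counts and 1 count over all IRF4 shRNA libraries, too few to tell from 0. The myeloid and mast cell markers overlapped in sum, at 0.153 to 0.824 CPM in controls and 0.299 to 0.871 CPM in IRF4 shRNA libraries. Of them LYZ went from 0.0201 to 0.209 CPM (48 counts in all), a small part of the sum in controls, and MPO and TPSAB1 were at 0. KLRD1, NCR1 and CD28 were at 0 in all libraries and CD8A was at 0.572 CPM in controls against 0.439 CPM in IRF4 shRNA libraries. The part of such cells in the PRF1 counts was not tested.

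CTSC, which encodes cathepsin C (chromosome 11, 88293592 to 88337761, minus strand), was lower with IRF4 shRNA. Controls had 496, 476, 499, 482, 469.8 and 503 CPM in replicates 1 to 6. IRF4 shRNA libraries had 137, 139 and 130.3 CPM in series 1 and 209, 209.9 and 201 CPM in series 2. The groups did not overlap, and series 1 was again the lower. The means were 488 ± 13.6 and 171 ± 39.1 CPM (SD, n = 6 each), a 2.85-fold difference and a log2 fold change of -1.51 (SE 0.12). CTSC stood at 27.6% of control in series 1 and at 42.6% in series 2.

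SRGN, which encodes serglycin (chromosome 10, 69088103 to 69104805, plus strand, 1493 kb from PRF1), was higher with IRF4 shRNA. Controls had 30.7, 31.5, 28.4, 28.6, 27.2 and 28.8 CPM, and IRF4 shRNA libraries 51.6, 52.3, 49.9, 53.8, 53.4 and 54.2 CPM, with no overlap. The means were 29.2 ± 1.60 and 52.5 ± 1.60 CPM (SD, n = 6 each), a 1.80-fold difference and a log2 fold change of 0.85 (SE 0.04). The difference was 0.76 (SE 0.05) in series 1 and 0.93 (SE 0.05) in series 2 on the log2 scale. The IRF4 shRNA libraries of the 2 series did not overlap, so the series with less IRF4 had slightly less SRGN. The part of the GC trend in this was not tested.

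SERPINB9 (chromosome 6, 2887270 to 2903309, minus strand) was higher with IRF4 shRNA by nearly the same amount in both series. Controls had 72.6, 77.1, 74.2, 75.9, 70.8 and 67.5 CPM. IRF4 shRNA libraries had 168, 159.6, 154, 162, 155 and 152 CPM. The means were 73.0 ± 3.53 and 158 ± 5.84 CPM (SD, n = 6 each), a 2.17-fold difference and a log2 fold change of 1.12 (SE 0.04). The log2 difference was 1.10 in series 1 and 1.13 in series 2 (SE 0.05 each), and the IRF4 shRNA libraries of the 2 series overlapped.

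**Figure D1:**
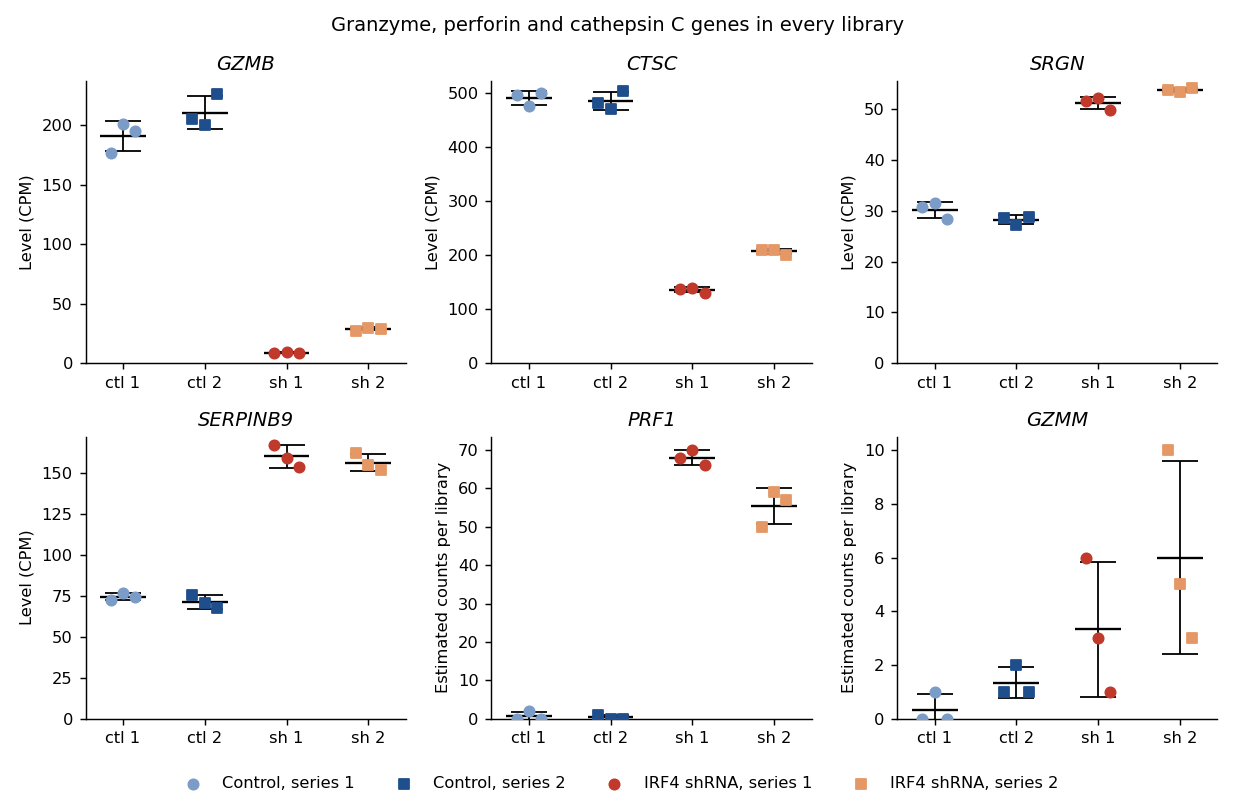
Levels in CPM (GZMB, CTSC, SRGN, SERPINB9) and estimated counts per library (PRF1, GZMM), with 1 point per library, for control (ctl) and IRF4 shRNA (sh) libraries of series 1 and 2. Horizontal lines are means and bars are SD (n = 3); GZMB and CTSC were lower in all 6 IRF4 shRNA libraries, SRGN, SERPINB9 and PRF1 were higher in all 6, and GZMM overlapped between the groups.

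In all, the groups did not overlap for any of the 5 members that passed the filter, 3 higher and 2 lower with IRF4 shRNA. Over all genes tested, 16.2% lay wholly higher and 14.7% wholly lower. Since the members were chosen with this contrast known, nothing is read from that count. Without control replicates 5 and 6 the log2 fold changes were -3.38 for GZMB, -1.52 for CTSC, 0.82 for SRGN, 1.08 for SERPINB9 and 6.04 for PRF1. After the GC trend was removed they were -3.40, -1.50, 0.87, 1.13 and 6.50 in the same order.

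**Figure D2:**
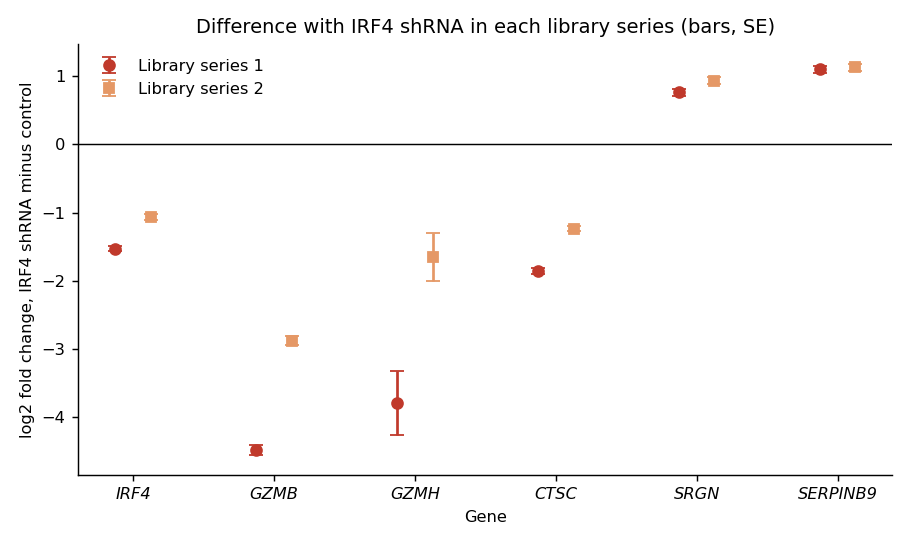
The y axis gives the log2 fold change (IRF4 shRNA minus control) of IRF4, of GZMB and its relative GZMH, and of CTSC, SRGN and SERPINB9 in library series 1 and 2, with SE. GZMB ran from -4.48 in series 1 to -2.87 in series 2 while SERPINB9 lay at 1.10 and 1.13.

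Whether the members already differed between the series without IRF4 shRNA was tested in the controls alone (series 2 against series 1, 3 libraries each), a contrast the choice of members did not use. By edgeR 0 of 16437 genes (0%) passed at an adjusted p under 0.05. At an unadjusted p under 0.05 there were 3766 genes, DESeq2 called 571, and edgeR without control replicate 4 called 4428, so the count of 0 does not show that the series were alike. GZMB, CTSC, SRGN and SERPINB9 did not pass in any of 11 alternatives either. GZMB had 191 ± 12.6 CPM in series 1 and 210 ± 13.7 CPM in series 2 (SD, n = 3 each), a log2 difference of 0.14 (SE 0.06, edgeR adjusted p = 0.182, and 0.0659 to 0.583 in the alternatives). CTSC differed by -0.02 (SE 0.04, edgeR adjusted p = 0.85), SRGN by -0.10 (SE 0.05, edgeR adjusted p = 0.279) and SERPINB9 by -0.06 (SE 0.05, edgeR adjusted p = 0.483). PRF1 passed the filter through its IRF4 shRNA counts, and with 3 control counts in all this comparison says nothing about it (SE 1.27). The control libraries of the 2 series overlapped for each of the 6 members with a row.

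Levels were then ordered per length of the principal transcript (CPM per kb). In controls CTSC was the highest at 254 ± 7.09, followed by GZMB at 207 ± 16.5, SRGN at 24.2 ± 1.33 and SERPINB9 at 17.7 ± 0.857 CPM per kb (SD, n = 6). None of these neighbours overlapped, and PRF1 and GZMM, both under the detection floor, were not ordered. In IRF4 shRNA libraries of series 1 the order was CTSC (70.4 ± 2.32), SRGN (42.5 ± 1.01), SERPINB9 (38.9 ± 1.65), GZMB (8.84 ± 0.471) and PRF1 (0.785 ± 0.0582 CPM per kb, n = 3 each). In series 2 the same order held, with 107 ± 2.59, 44.5 ± 0.317, 38.01 ± 1.29, 29.6 ± 1.33 and 0.587 ± 0.0407 CPM per kb. No 2 neighbours overlapped in either series, and GZMM, at 1 to 10 counts per IRF4 shRNA library, was not ordered here either. GZMB thus lay above SRGN and SERPINB9 in controls and below both with IRF4 shRNA. Per length, GZMB stood 10.3 to 14.3 times above its inhibitor SERPINB9 in controls, but at 20.4% to 24.0% of it in IRF4 shRNA libraries of series 1 and at 71.4% to 81.6% in those of series 2.

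**Figure D3:**
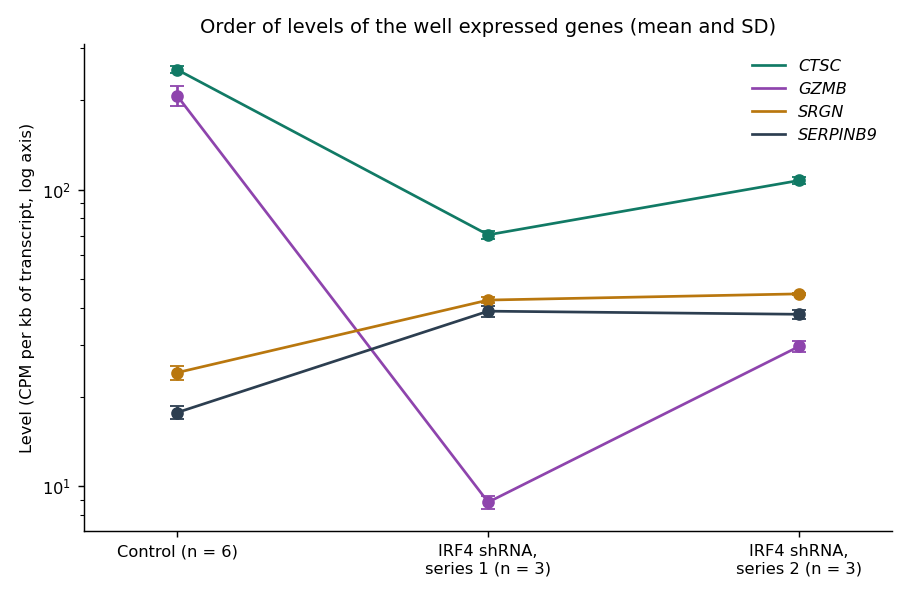
Mean level (CPM per kb of the principal transcript, log axis) of CTSC, GZMB, SRGN and SERPINB9 in controls (n = 6) and in IRF4 shRNA libraries of series 1 and 2 (n = 3 each), with SD; lines join the values of 1 gene. GZMB goes from 207 in controls, above SRGN and SERPINB9, to 8.84 and 29.6, below both.

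Among 13833 genes at a mean of at least 1 CPM, those whose log2 CPM followed GZMB most closely over the 12 libraries were ranked by Pearson's r, as a description. CTSC had rank 2 (r = 0.997) and IRF4 itself rank 8 (r = 0.993). The 5 closest genes outside the list were MAN2A2, a Golgi mannosidase (r = 0.998), PIM2, a serine/threonine kinase (r = 0.996), the antisense transcript XXYLT1-AS2 (r = 0.995), MTCL1, a microtubule cross-linking protein (r = 0.994), and ABHD6, a lipid hydrolase (r = 0.994). Their IRF4 shRNA levels were in each case lower in series 1 than in series 2, as for PIM2 with 660 ± 23.7 CPM in controls (n = 6), 302 ± 6.29 in series 1 and 405 ± 16.3 in series 2 (n = 3 each). The 12 points share libraries and fall in few clusters, so a high r can come from differences between the groups and the series. XXYLT1-AS2 cannot be told from its sense partner where counting did not use strand.

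Genes next to the members were compared with the same fit, which called 48.2% of all genes tested, 24.2% higher and 23.9% lower with IRF4 shRNA. Rises made up 50.3% of calls, and 63.9% when scaling used library size alone. Of 39 tested genes within 500 kb of GZMB 12 rose and 11 fell, with GZMH the lowest. Around PRF1 3 of 12 rose and 2 fell, around SRGN 1 of 11 rose, around SERPINB9 5 of 17 rose and 6 fell, and around GZMM 1 of 20 rose and 3 fell. The single tested neighbour of CTSC, RAB38, fell (by -0.63 on the log2 scale, SE 0.17, edgeR adjusted p = 0.00743). Median log2 fold changes of these neighbours were -0.08 around GZMB, 0.10 around PRF1, 0.04 around SRGN, -0.03 around SERPINB9 and -0.05 around GZMM, against -0.006 over all genes tested.

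Other genes of the granule pathway moved in both directions, as did all genes tested (24.2% higher and 23.9% lower). Of the other cytotoxic effector genes, 4 of 6 tested rose and 1 fell (median log2 fold change 0.29), and 2 fell if control replicates 5 and 6 are left out. CST7, which encodes cystatin F, an inhibitor of cathepsin C, rose 3.35-fold from 0.323 ± 0.129 to 1.08 ± 0.252 CPM (SD, n = 6 each, edgeR adjusted p = 5.58e-05). TNFSF10, the gene of the death ligand TRAIL, rose 2.82-fold from 1.48 ± 0.140 to 4.17 ± 0.787 CPM, and the granule membrane gene CD63 rose 1.37-fold. The gene of this list that fell was GZMH, whose reads may have been divided with GZMB. GNLY, which encodes granulysin, had at most 10 counts over the 12 libraries together. Among other lysosomal cathepsins and cystatins 5 of 10 tested rose and 3 fell (median 0.14, but 0.22 under library-size scaling). CTSH, of cathepsin H, rose 2.75-fold from 41.9 ± 2.34 to 115 ± 5.35 CPM (edgeR adjusted p = 1.8e-12) and CSTB, of cystatin B, 2.05-fold, while CSTA, of cystatin A, fell 1.69-fold and CTSB, of cathepsin B, 1.15-fold. CTSC thus stood lower while the related CTSH stood higher.

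The machinery that sorts and releases granules had 8 of 18 tested genes higher and 3 lower, beside 24.2% and 23.9% of all genes tested. The median was 0.05, but 0.13 under library-size scaling and 0.11 if control replicates 5 and 6 are left out. RAB27A, a GTPase needed for granule docking, rose 1.91-fold from 2.62 ± 0.462 to 5.02 ± 0.326 CPM (edgeR adjusted p = 4.41e-06). SYTL2, a RAB27A effector, rose 2.62-fold, the membrane fusion gene SNAP23 1.38-fold and the mannose 6-phosphate receptor M6PR, which carries lysosomal enzymes, 1.25-fold. Of 3 other tested clade B serpins, SERPINB1 rose 1.52-fold from 32.2 ± 1.18 to 48.9 ± 2.25 CPM (edgeR adjusted p = 1.31e-08) and SERPINB8 1.29-fold. SERPINB6 differed by 0.13 on the log2 scale (SE 0.08, edgeR adjusted p = 0.182), and passed when scaling used library size alone (0.21, edgeR adjusted p = 0.0458). Enzymes that build chondroitin sulphate chains, as carried by serglycin, rose in 4 of 16 and fell in 5 (median -0.07, but 0.01 under library-size scaling, -0.12 with the GC trend removed, and 0.08 if control replicates 5 and 6 are left out). Of these the sulphotransferase genes CHST11 and CHST12 went in opposite directions, the former 2.16-fold up and the latter 1.97-fold down, from 33.2 ± 7.27 to 16.8 ± 1.40 CPM. CSGALNACT2, which starts the chain, and DSE, an epimerase, each fell 1.51-fold.

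Granzyme substrates of cell death rose in 8 of 17 tested and fell in 4 (median 0.08, but 0.16 under library-size scaling and 0.04 if control replicates 5 and 6 are left out). CASP10 and PARP1 rose 1.36- and 1.39-fold. APEX1, a DNA repair nuclease, fell 1.40-fold, and GSDME, a pore-forming gasdermin, 2.07-fold from 10.3 ± 0.663 to 4.97 ± 0.608 CPM (SD, n = 6 each, edgeR adjusted p = 7.55e-08). Transcription factors of cytotoxic lymphocytes rose in 7 of 14 and fell in 4 (median 0.33), and with library size alone in 8 and 2. STAT5A rose 12.8-fold from 1.32 ± 0.210 to 16.9 ± 0.841 CPM (edgeR adjusted p = 1.93e-13) and STAT3 1.45-fold. NFATC2, a factor of calcium signalling, fell 1.90-fold. Receptors and kinases of cytokines known to induce granzyme B rose in 7 of 17 and fell in 3 (median 0.10), and with library size alone in 10 and 2 (median 0.18). IL2RB and IL2RG, subunits of the IL-2 receptor, rose 3.12- and 2.17-fold and IL12RB1, of the IL-12 receptor, 2.54-fold. IL3RA, of the IL-3 receptor, whose X and Y copies can share reads, fell 3.90-fold from 13.4 ± 0.850 to 3.43 ± 0.903 CPM (edgeR adjusted p = 1.74e-08). Over all genes tested 24.2% rose and 23.9% fell. Library size alone also moved the median log2 fold change of all genes tested, to 0.068 from -0.006. Each of these lists holds genes of other pathways too, and nothing particular to the list is read from a count.

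**Figure D4:**
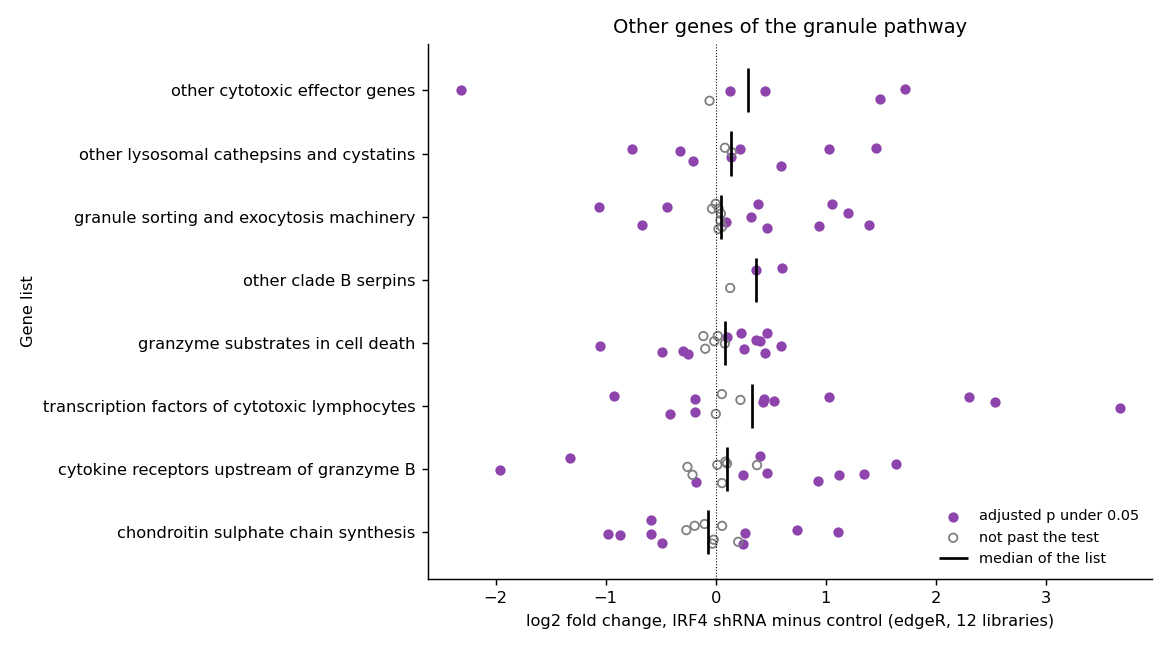
The log2 fold change (x axis, IRF4 shRNA minus control, edgeR over 12 libraries) of each tested gene in 8 lists around the granule pathway (y axis); filled points passed an adjusted p under 0.05, open points did not, and black lines are list medians. Medians lie between -0.07 and 0.37, and STAT5A at 3.67 and GZMH at -2.31 lie farthest out.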

How the data were processed

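TMD8 libraries were made with a stranded TruSeq kit and sequenced paired-end, per the labels' protocols. STAR, HTSeq and hg38 are named per the submitters' processing notes, without versions or order. The authors deposited 1 table of estimated counts, not normalized. Of its values 66.6% were whole (tolerance 1e-06). The step giving fractional counts, the annotation and the use of strand are not given in the sources used here. Gene ends were reduced by 1, after which 15265 genes, 2 members among them, had the coordinates of GENCODE 29.

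Counts were rounded and tested with edgeR 4.0.16 in R 4.3.3 (quasi-likelihood test, TMM, filterByExpr with a minimum count of 10, Benjamini-Hochberg adjustment over all genes tested, threshold 0.05). DESeq2 1.42.0 was an alternative. The edgeR fits were tested on simulated data. CPM use TMM-scaled library sizes. SEs were taken from the fold change and the F statistic. Group differences used all 12 libraries without a covariate. The series effect in controls used group-by-series means, which share 1 spread estimate. Lengths and GC are those of the APPRIS principal transcript in GENCODE 29, used in place of the longest one after the lengths were seen.

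Alternatives were other scalings, DESeq2, no filter, GC trend removal, a replicate block, series as a covariate and left-out libraries. The members and lists were chosen with earlier results of these data known. Genes named are all members, up to 4 per list with the smallest p, and the 5 genes most like GZMB; 1 gene chosen by this rule is not reported here. Motifs were chosen after the promoters were seen, and all 8 searched are given. Marker lists covered B, T, NK, plasmacytoid dendritic, and myeloid and mast cells.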

Additional observations from a re-analysis of the deposited data

How the results depend on the processing

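The number of genes changed with IRF4 shRNA was 7918, and 6942 with the replicate number as a block (replicate block); without 1 replicate each it ran from 7544 to 8209. Same-numbered libraries did not deviate together (r of deviations from group means -0.255 to 0.130), which cannot tell whether the libraries were made in pairs. The replicate numbers are those of the sample titles. In the library names, the last numbers of IRF4 shRNA replicates 5 and 6 run in reverse order to those of control replicates 5 and 6. Under the block 3 rather than 5 of 10 cathepsins and cystatins rose. For the controls' series comparison, edgeR called 0 genes, DESeq2 571, and leave-one-out fits 0 to 4428, the last without control replicate 4; the cause was not tested. Each of the 5 tested members and IRF4 kept its direction in all 20 alternatives. The log2 fold change of GZMB ran from -3.63 to -3.25, of CTSC from -1.56 to -1.43, of SRGN from 0.82 to 0.92, of SERPINB9 from 1.08 to 1.19 and of PRF1 from 6.04 to 7.48, the last without control replicate 2, which holds 2 of the 3 control counts, and the lowest without control replicates 5 and 6. Of 31 pathway genes chosen by the rule for named genes, all 30 that passed did so in every alternative, and SERPINB6 passed only with library size alone. Depth limits PRF1 and GZMM, whose control counts lie under the floor of 3 per library.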
